A study of Mus musculus with 30 samples.

Results

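At the IG-CGI, the CpG island of the intergenic control region of the imprinted Dlk1-Dio3 domain, most reads were either mostly methylated or mostly unmethylated, and the results below are about the reads in between. The reads were selected on their own methylation calls: a mixed read had at least 5 CpG calls, with more than 30% but less than 70% of them methylated. There were 2385 such reads among 22349 IG-CGI reads with at least 5 calls, and 14 of the 17 libraries, of 418 to 1917 IG-CGI reads each, held any. The calls came from bisulfite-converted DNA that was amplified in nested PCR and read on a nanopore sequencer, so each read gives the state of up to 29 CpGs over 218 bp on 1 amplified molecule. The series compared wild-type and mutant genotypes in cultured cells and in mice, and its 30 libraries held 25141 reads over several amplicons.

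The mESC libraries, from mouse embryonic stem cells, were wild type, Gzf1 knockout and Dnmt1 knockout in the line V6.5, and Tet triple knockout in a line of its own. The libraries from animals were E10.5 embryo trunk (wild type and Gzf1 knockout), MII oocytes (1 wild type, 2 Gzf1 knockout), adult tail (wild type and Gzf1 knockout), 5 heterozygous tails with a Gzf1-knockout mother and a wild-type father, and a Gzf1 knockout pup found dead at birth. The dead pup carries the tissue label of adult tail, and the heterozygous animals are called adult mice in their titles and pups in their library names, so their ages are uncertain. Of the 12 groups, 10 had 1 library, 1 had 2 (knockout oocytes) and 1 had 5 (heterozygous tails). A difference between single libraries therefore compares those libraries, not the genotypes, and the labels do not say whether an mESC line is 1 clone or whether oocytes or embryos were pooled. The wild-type and the knockout library came from 1 sequencing order in trunk and in tail, but from different orders in mESC and oocytes, where order and genotype cannot be told apart. The dead pup and the 5 heterozygous tails shared an order, which was not that of the wild-type tail.

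The Dlk1-Dio3 domain is an imprinted cluster on mouse chromosome 12, in which Dlk1 (109452485 to 109463336, mm10) is expressed from the paternal copy and the long non-coding RNA gene Meg3 (109540996 to 109571729) from the maternal copy. Its intergenic control region is methylated on the paternal copy and unmethylated on the maternal copy in normal somatic tissue. Dnmt1 copies CpG methylation to the new strand at replication, Tet enzymes oxidise methylcytosine, and Zfp57 and Gzf1 (chromosome 2, 148679384 to 148692949) are zinc finger proteins, Zfp57 being known to bind methylated imprinting control regions. A mixed read shows methylated and unmethylated calls on a single amplified molecule, which the average level of a locus does not reveal. Such a read need not come from a single original strand, because molecules can be joined during PCR.

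The order of the calls along a read separated mixed reads of several kinds. In the patterns below Z is a methylated and z an unmethylated call, in the order of the 29 CpGs at positions 55, 59, 72, 77, 101, 108, 131, 147, 149, 157, 167, 177, 180, 193, 198, 200, 205, 214, 216, 221, 223, 228, 231, 244, 246, 251, 254, 264 and 273 of the amplicon reference. The first 2 patterns are among the 3 found in the most libraries, and the others are the most frequent complete patterns of single libraries, shown because they carry the contrast between blocks and scattered calls.

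Single switch, 11 libraries: zzzzzzzzzzZZZZZZZZZZZZZZZZZZZ

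Single switch, 8 libraries: zzzzzzzzzZZZZZZZZZZZZZZZZZZZZ

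Gzf1 knockout trunk, first: ZZZZzzzzzzzzzzzzZzzzzzzzzZZZZ

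Gzf1 knockout tail, first: ZZZZzZzzzzzZZZZzZZzzzzzzzZZZZ

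Wild-type tail, first: ZZZZzzzzzzZzzzzzZZZZzZZZzzZzz

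Gzf1 knockout oocyte 2, first: ZZZZZZzzzZzzZZZzzZzZzzZZzZZZz

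Gzf1 knockout oocyte 2, second: ZZZZZZzzzzZzZZZZZZZzZzZZzZZzZ

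The pattern with the switch between CpGs 157 and 167 was seen in 16 reads of 11 libraries, and the one with the switch between CpGs 149 and 157 in 23 reads of 8 libraries. The latter was the most frequent complete pattern of wild-type mESC, in 4 of 46 reads, and of wild-type trunk, in 3 of 65 and tied with 2 others. A pattern with its only switch between CpGs 180 and 193 was also found in 8 libraries, in 11 reads. The first pattern of the knockout trunk was carried by 10 of its 145 complete mixed reads, which are those called at all 29 CpGs. The first pattern of the knockout tail was carried by 9 of 141, and that of the wild-type tail by 5 of 136. The 2 patterns of knockout oocyte library 2 were carried by 73 and 54 of 174.

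The share of mixed reads was 0 in 3 libraries, 3.14% to 6.68% in wild-type and Tet triple knockout mESC and wild-type trunk, and highest in a knockout oocyte library and the dead pup. In mESC, 64 of 1210 wild-type reads were mixed, which is 5.29% (Wilson interval at 95%, 4.16 to 6.70), and 355 of 1913 Gzf1 knockout reads, which is 18.6% (16.9 to 20.4). The Tet triple knockout line had 13 mixed reads, 3.14% of its reads (1.84 to 5.30). The Dnmt1 knockout had 0 of 766, a count that sets an upper limit of 0.392%, and 764 of its reads were mostly unmethylated. These intervals do not overlap between the wild-type and the Gzf1 knockout cells, and they do overlap between the wild-type and the Tet triple knockout cells. Reads are PCR copies without molecular identifiers and so not independent molecules, and the intervals and limits cover counting error only.

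In E10.5 trunk the share was 6.68% (5.47 to 8.13) in the wild-type library and 10.4% (9.09 to 11.9) in the Gzf1 knockout library, from 91 and 193 mixed reads. The adult tails had 187 mixed reads in the wild type, 10.8% (9.43 to 12.4), and 170 in the knockout, 11.2% (9.70 to 12.9). The trunk intervals stand apart, whereas the tail intervals almost coincide. The wild-type tail library thus held a larger share of mixed reads than the wild-type trunk or wild-type mESC library, with intervals that do not overlap. Each of these single libraries came from a different sequencing order, so source and order cannot be told apart here.

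The MII oocytes, which hold maternal copies only, split by library. The wild-type library had 0 mixed reads of 1178 (up to 0.255%), all of them mostly unmethylated, and knockout library 1 had 0 of 1472 (up to 0.204%), all of them mostly methylated. Knockout library 2 had 236 mixed reads, 30.03% of its reads (26.9 to 33.3), and the other 550 were mostly methylated. The 2 knockout libraries carry the same label and sequencing order, and the labels do not say whether they came from separate females, so nothing can be said of the genotype from the mixed reads of 1 of them.

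The 5 heterozygous tails lay close together, at 11.98%, 10.1%, 10.05%, 11.8% and 12.6%. Their mean was 11.3% ± 1.18 (SD, n = 5), against 10.8% in the wild-type tail, and 3 of 5 animals were above it. The difference of 0.499 points was smaller than the SD between animals, and it turned to -0.373 with identical patterns counted once. With 1 wild-type library, an exact two-sided permutation test (p = 1) cannot give less than 0.167 and does not show that the groups are alike. The dead pup, at 25.7% (23.2 to 28.3) from 296 mixed reads, was above all 5 heterozygous tails of its sequencing order, by 14.4 points on average. That comparison was chosen after its values were seen, and its exact permutation p was 0.167, the smallest that 1 library against 5 allows (Benjamini-Hochberg adjusted p = 0.333 over 12 tests).

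**Figure D1:**
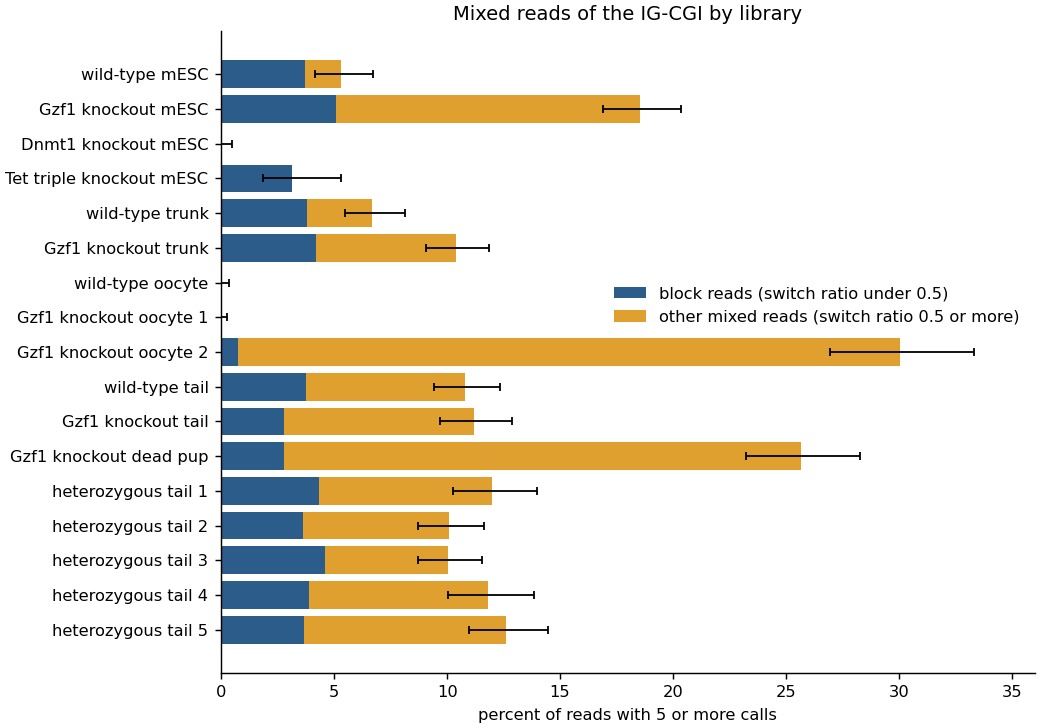
Bars give the percentage of reads with at least 5 calls that were mixed in each of the 17 libraries, split into block reads (switch ratio under 0.5) and the other mixed reads, and error bars are 95% Wilson intervals of the whole share. The shares run from 0 in 3 libraries to 30.03% in Gzf1 knockout oocyte library 2, and the blue part stays under 5.1% in each library.

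Over the 4 sources with both genotypes, the knockout share minus the wild-type share was +13.3 points in mESC, +3.72 in trunk, +15.01 in oocytes (the mean of both knockout libraries) and +0.389 in tail. All 4 differences were positive, with a mean of 8.10 ± 7.15 (SD, n = 4), and p was 0.125 in an exact two-sided permutation test that flips signs, where 4 differences allow none smaller (adjusted p = 0.333 over 12 tests). The oocyte term rests on 1 library: the mean was 4.34 without knockout oocyte library 2 and 11.8 without library 1. When each call pattern was counted once per library, the tail difference turned to -3.48 points, with 19.7% for wild type and 16.2% for knockout. This count also merges reads of different molecules that are methylated or unmethylated throughout, so it is not a correction for PCR copies alone. It moved the share from 5.29% to 11.8% in wild-type mESC and from 30.03% to 25.9% in knockout oocyte library 2.

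The mixed share also depends on what it is compared with, because the knockout libraries had fewer mostly unmethylated reads. Mostly unmethylated reads made up 60.2% of wild-type and 15.2% of knockout mESC reads, 51.7% and 4.20% of trunk reads, and 44.0% and 9.48% of tail reads. Per 100 reads that were not mostly unmethylated, mixed reads numbered 13.3 in wild-type and 21.9 in knockout mESC, 13.8 and 10.8 in trunk, and 19.3 and 12.4 in tail. On this scale the knockout was higher in mESC and lower in trunk and tail. The heterozygous tails had 17.4 to 23.9 and the dead pup 27.6.

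The level of single mixed reads covered the whole range the definition admits, and many reads lay near its bounds. Over all 17 libraries, 552 mixed reads had a level from 30% to 40%, 1009 from 40% to 60% and 824 from 60% to 70%. Just outside, 788 reads lay at 20% to 30% and 961 at 70% to 80%. The median level of mixed reads was 58.6% in wild-type and knockout mESC, 55.2% and 53.6% in wild-type and knockout trunk, 48.3% and 58.6% in wild-type and knockout tail, 41.4% to 46.4% in the 5 heterozygous tails, 58.6% in the dead pup and 60.7% in knockout oocyte library 2. The median mixed read was called at all 29 CpGs in each of the 13 libraries with at least 30 mixed reads, to which the profiles below are limited.

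Methylated calls of mixed reads were not spread evenly over the island. The levels by CpG that follow use the same calls as the definition of a mixed read, so they are given as a description with no test. In all 13 libraries the first 5 CpGs, at 55 to 101, and the last 20, at 157 to 273, held a higher mean level than the 4 between them, at 108 to 149. The first 5 were above the next 4 by more than 20 points in 11 of the 13, the exceptions being wild-type mESC and wild-type trunk. In some libraries mostly methylated reads were also lower at these CpGs, so the dip is not particular to mixed reads. Pearson's r across CpGs between the profiles of both kinds of read ran from 0.135 (heterozygous tail 4) to 0.859 (dead pup). In the wild-type tail the 3 stretches stood at 60.3%, 22.7% and 51.3%. In the heterozygous tails they stood at 59.1% ± 2.19, 24.8% ± 3.70 and 47.9% ± 2.60 (SD, n = 5). The ranges of the heterozygous animals, 55.8% to 61.6%, 18.9% to 28.0% and 45.3% to 51.7%, held the wild-type tail in all 3 stretches.

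Trunk gave the largest contrast between genotypes in where the methylated calls lay. The wild-type trunk had 36.6%, 26.8% and 65.1% in the 3 stretches, and the Gzf1 knockout trunk 83.3%, 36.6% and 46.7%. The knockout minus the wild type was thus +46.6 points at the first 5 CpGs, +9.74 at the next 4 and -18.4 at the last 20. With bounds of 20% and 80% of calls they were +38.5, +4.78 and -3.89. CpG 59 was methylated in 45.5% of wild-type calls (Wilson interval 35.5 to 55.8, 88 calls) and 92.7% of knockout calls (88.1 to 95.6, 191 calls), the highest level of the knockout library, whose lowest was 27.6% at CpG 149. The wild-type extremes were CpG 198 at 83.3% and CpG 131 at 22.2%. CpG 246 stood at 80% (70.6 to 87.0) in wild-type and 33.9% (27.3 to 41.1) in knockout reads. The stretch with the highest level was thus the one beyond CpG 149 in the wild-type embryo library and the one before CpG 108 in the knockout embryo library.

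The 3 stretches stood at 48.9%, 41.0% and 60.4% in wild-type mESC and at 56.7%, 34.7% and 58.6% in Gzf1 knockout mESC. These differences, +7.83, -6.31 and -1.82 points, were smaller than those in trunk, and the last turned to +1.54 with identical patterns counted once and to +5.15 with bounds of 20% and 80%. The knockout profile was more jagged, with its highest level at CpG 214 (80%, interval 75.4 to 83.9) and its lowest at CpG 131 (22.6%, 18.5 to 27.3). In wild-type cells CpG 214 stood at 60% and CpG 131 at 38.3%, and the extremes were CpG 273 at 74.5% and CpG 147 at 37.7%.

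In tail the knockout was higher in all 3 stretches, at 70.6%, 32.7% and 56.8%, by 10.3, 9.97 and 5.48 points. With the class narrowed to more than 40% and less than 60% of calls, the first 2 differences turned to -0.412 and -7.89 points and the last was 3.62. CpG 59 was the highest CpG of both tail libraries, at 74.6% (wild type) and 85.1% (knockout), and the lowest were CpG 147 at 18.2% and CpG 131 at 19.8%. In the heterozygous tails CpG 59 was again the highest in 4 of 5 animals (72.4% to 77.8%), while animal 1 had CpG 193 at 77.9%. The lowest CpG of each of these animals lay between 108 and 149, at 17.8% to 25.9%.

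Among the trunk and tail libraries and the dead pup, the dead pup had the strongest step at this place. Its mixed reads stood at 90.8% over the first 5 CpGs, 35.3% over the next 4 and 49.7% over the last 20. CpG 101 was methylated in 85.9% of calls (81.4 to 89.4) and the neighbouring CpG 108 in 41.0% (35.5 to 46.7). The mostly methylated reads of the dead pup also stepped down here, from 96.2% at CpG 101 to 81.0% at CpG 108. In its mixed reads the highest level was 96.2% at CpG 59 and the lowest 20.5% at CpG 246.

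**Figure D2:**
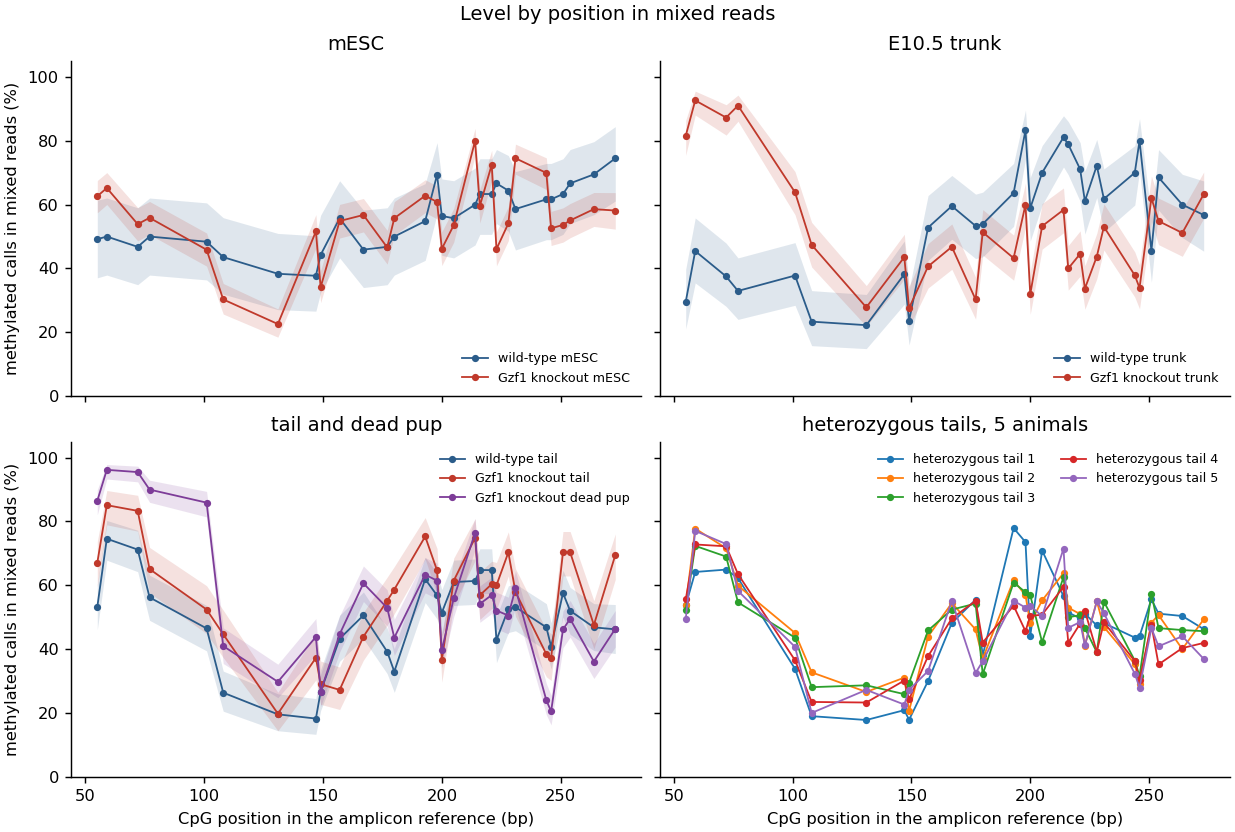
The percentage of methylated calls in mixed reads is drawn against CpG position in the amplicon reference, with 95% Wilson intervals as shading for the wild-type and Gzf1 knockout libraries. The 2 trunk lines cross, with the knockout at 83.3% and the wild type at 36.6% over the first 5 CpGs, and in each panel the level at CpGs 108 to 149 lies on average below that of the stretches on both sides.

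The profiles over the 29 CpGs were alike among the heterozygous tails and between them and the wild-type tail. Pearson's r across CpGs was 0.742 to 0.919 over the 10 pairs of these animals and 0.781 to 0.889 between them and the wild-type tail. With the knockout tail it was 0.701 to 0.829, with the dead pup 0.541 to 0.822, with the wild-type trunk 0.134 to 0.507 and with the wild-type mESC 0.0753 to 0.436. The wild-type trunk profile resembled the wild-type mESC profile (r = 0.734) and not the knockout trunk profile (r = -0.219), and the knockout trunk was most like the dead pup (r = 0.827). CpGs of a profile lie on the same reads and are not independent, and libraries of 1 sequencing order share that too, so these values carry no test.

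A switch is a change from methylated to unmethylated, or back, between neighbouring called CpGs of a read, and it was not used to choose the reads. The switch ratio of a read divides its switches by the mean number that a random order of the same calls gives, so that 1 is a random order and low values are blocks. Wild-type mESC reads had a median of 4 switches and a mean of 4.64, against 12.8 for a random order. Gzf1 knockout mESC reads had a median of 9 and a mean of 8.83. The mean ratio was 0.366 for wild-type and 0.691 for knockout cells, so the order was less blocked in the knockout cells and still short of random.

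Trunk and tail differed in the same direction and by less. The mean ratio was 0.483 and 0.600 in wild-type and knockout trunk, with medians of 5 and 7 switches. It was 0.592 and 0.670 in wild-type and knockout tail, with medians of 8 and 9. Over the 3 sources with both profiles the knockout minus the wild type was +0.325 in mESC, +0.116 in trunk and +0.0774 in tail, a mean of 0.173 ± 0.133 (SD, n = 3). All 3 were positive, and p was 0.25 in the same exact permutation test, where 3 differences allow none smaller (adjusted p = 0.429). Without mESC the mean was 0.0969. With the class narrowed to more than 40% and less than 60% of calls, the wild-type mESC library had too few reads and the tail difference turned to -0.0556.

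The heterozygous tails had ratios of 0.638, 0.606, 0.564, 0.609 and 0.680, with a mean of 0.620 ± 0.0428 (SD, n = 5). The wild-type tail, at 0.592, lay within their range, and the difference of 0.0275 had an exact permutation p of 0.667 (adjusted p = 0.889), in a design that cannot show likeness either. With bounds of 40% and 60% the difference turned to -0.00446. The dead pup, at 0.785, lay above all 5, by 0.166 on average, with the smallest possible exact permutation p of 0.167 (adjusted p = 0.333). This comparison too was chosen after its values were seen, so its p-value adds no support. Mixed reads of the dead pup had a median of 11 switches, and 61.5% of them had at least 10.

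**Figure D3:**
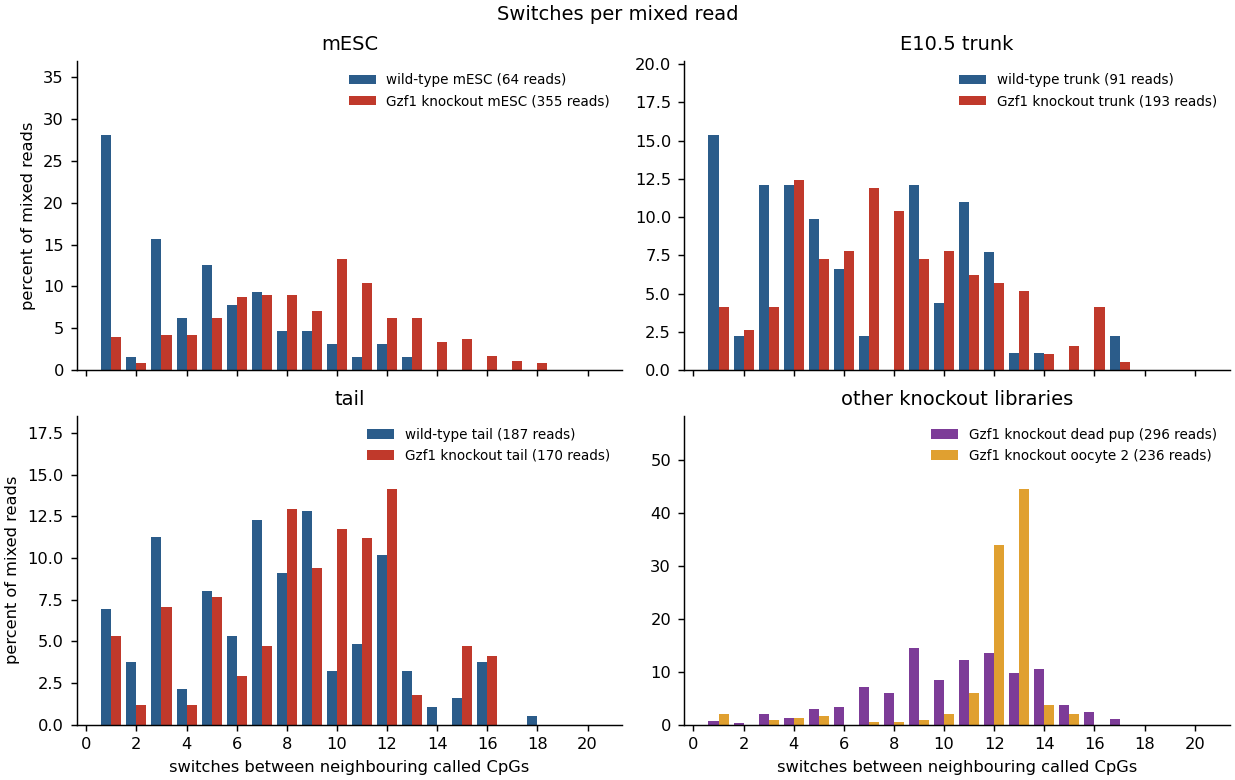
Bars give the percentage of mixed reads with each number of switches between neighbouring called CpGs, for the wild-type and Gzf1 knockout libraries of 3 sources and for the dead pup and knockout oocyte library 2. Wild-type mESC and trunk have their tallest bar at 1 switch (28.1% and 15.4%), and the oocyte library at 12 and 13 switches.

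Block reads were those with a switch ratio under 0.5, and scattered reads those with a ratio of at least 1. In wild-type mESC 70.3% of mixed reads were blocks (58.2 to 80.1), and in the knockout cells 27.3% (22.9 to 32.2). The shares were 57.1% and 40.4% in wild-type and knockout trunk, and 34.8% and 24.7% in wild-type and knockout tail. With identical patterns counted once they were 59.7% and 41.6% in trunk, and 36.9% and 32.8% in tail, so the tail gap narrowed. All 13 mixed reads of the Tet triple knockout line were block reads. Scattered reads were 1.56% (0.276 to 8.33) of mixed reads in wild-type mESC, 13.2% (10.1 to 17.2) in knockout mESC and 16.2% (12.5 to 20.8) in the dead pup.

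Set against all reads of a library, block reads differed less between libraries than the other mixed reads did. This division was made after the values were seen. Block reads were 3.72% of wild-type and 5.07% of knockout mESC reads, 3.82% and 4.20% of trunk reads, and 3.76% and 2.76% of tail reads. They were 3.60% to 4.61% in the heterozygous tails, 2.78% in the dead pup, 3.14% in the Tet triple knockout line and 0.763% in knockout oocyte library 2. Mixed reads that were not block reads were 1.57% and 13.5% in wild-type and knockout mESC, 2.86% and 6.19% in trunk, and 7.05% and 8.43% in tail. They reached 22.9% in the dead pup, against 5.43% to 8.94% in the heterozygous tails, and 29.3% in knockout oocyte library 2. The comparison depends on the scale. In mESC there were 45 block and 418 mostly methylated reads in the wild type, and 97 and 1268 in the knockout. The counts were 52 and 567, and 78 and 1586, in trunk, and 65 and 782, and 42 and 1205, in tail. Relative to mostly methylated reads, block reads were thus fewer in the knockout of each of these sources.

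Over the 4 sources the knockout minus the wild type was 0.282 ± 0.963 points for block reads (SD, n = 4), with an exact sign-flip permutation p of 0.625, and 7.81 ± 6.45 points for the other mixed reads, with p = 0.125. The latter was positive in 4 of 4 sources and the former in 3, and neither exact test passed adjustment (adjusted p = 0.889 and 0.333). The dead pup minus the heterozygous tails was -1.25 points for block reads and 15.6 points for the other mixed reads, both at the smallest exact permutation p of 0.167. The division of the reads and the comparison of the dead pup were both made after the values were seen. The p-values over sources and that of the dead pup therefore add no support. Leaving out mESC turned the block difference over sources to -0.0744, and counting identical patterns once turned it to -0.994.

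The 2 kinds of read also differed in where they were methylated. In wild-type trunk the 52 block reads stood at 21.9%, 20.7% and 72.8% over the 3 stretches, and the 39 others at 57.0%, 34.8% and 55.03%. In wild-type tail the 65 block reads stood at 44.3%, 28.4% and 62.7%, and the 122 others at 69.0%, 19.6% and 45.3%. In knockout trunk block reads and others were alike, at 81.9% and 84.3% over the first 5 CpGs. In knockout mESC the 97 block reads stood at 44.6%, 21.3% and 59.9%, and in knockout tail the 42 block reads at 39.7%, 17.5% and 58.1%. Block reads were thus most methylated in the last stretch in 5 of these 6 libraries of both genotypes (40.9%, 31.8% and 63.6% in wild-type mESC), the knockout trunk being the exception. The first stretch was also the highest in block reads of the dead pup (88.0%, 37.8% and 39.6%) and of heterozygous tail 3 (53.8%, 32.6% and 52.5%). In the other heterozygous tails the last stretch was the highest.

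How far along the read a call resembled another was followed over distance. A pair of calls 1 to 10 bp apart was alike in 83.1% of cases in wild-type mESC, 76.4% in wild-type trunk and 69.0% in wild-type tail. The knockout values were 65.7%, 69.5% and 63.6%, those of the heterozygous tails 66.1% to 72.6%, and that of the dead pup 59.9%. A random order of the same calls gives about 51.6%. At 151 to 218 bp the share fell below that, to 25.5% in wild-type mESC, 27.8% in wild-type trunk and 37.0% in wild-type tail. The share of like pairs over all distances is set by how many calls of a read are methylated, so a high share at short distance goes with a low share at some longer distance. In the 3 knockout libraries of the same sources the value at 151 to 218 bp was 45.5% to 47.5%.

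**Figure D4:**
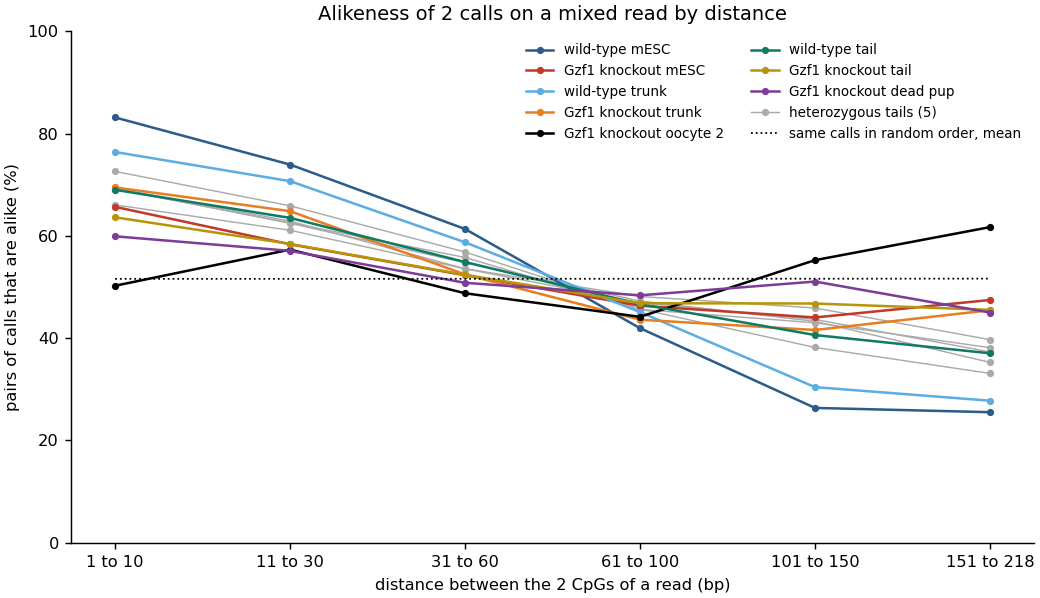
The percentage of pairs of calls on a mixed read that are alike is drawn against the distance between the 2 CpGs, for 13 libraries, with the mean of a random order of the same calls as a dotted line. Wild-type mESC starts highest, at 83.1%, and ends lowest, at 25.5%, while knockout oocyte library 2 starts at 50.2%, near the dotted line.

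Reads with a single switch were the simplest block reads. There were 160 in 14 libraries, of which 94 went from unmethylated to methylated along the amplicon and 66 the other way. They were 28.1% of mixed reads in wild-type mESC, 15.4% in wild-type trunk, 3.94% in knockout mESC and 0.676% in the dead pup. As a share of all reads they were 1.49%, 1.03%, 0.732% and 0.173% in these libraries, and 0.850% to 1.18% in the heterozygous tails. In knockout trunk all 8 were methylated first, and in wild-type trunk 12 of 14 were unmethylated first. Only 1 of the 8 was a complete read, with its switch between CpGs 200 and 205. Of the 8, 4 switched between CpGs 77 and 101, a place that no complete mixed read with 1 switch can have. The contrast in direction in trunk thus rests mostly on incomplete reads of the knockout.

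Among the 95 complete mixed reads with 1 switch, 72 were unmethylated first and 23 methylated first. Outside the class, complete reads with 1 switch were more often methylated first at most boundaries. The counts were 64 against 22 between CpGs 59 and 72, 42 against 18 between 77 and 101, and 79 against 50 between 264 and 273. The direction seen in mixed reads is therefore not that of all reads with 1 switch. The definition admits a switch after CpG number 9 to 20 only, which is 12 of the 28 boundaries. Of the 72, 23 switched between CpGs 149 and 157, in 8 libraries, and 16 between 157 and 167, in 11 libraries, which together is 54.2%. A further 11 switched between 180 and 193. Of the 23 that were methylated first, 8 switched between 149 and 167 (34.8%). The place between 149 and 157 is the first that the definition admits, so reads with an earlier switch were not seen as mixed. A molecule with 1 boundary and a read joined from 2 molecules during PCR cannot be told apart in these calls.

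**Figure D5:**
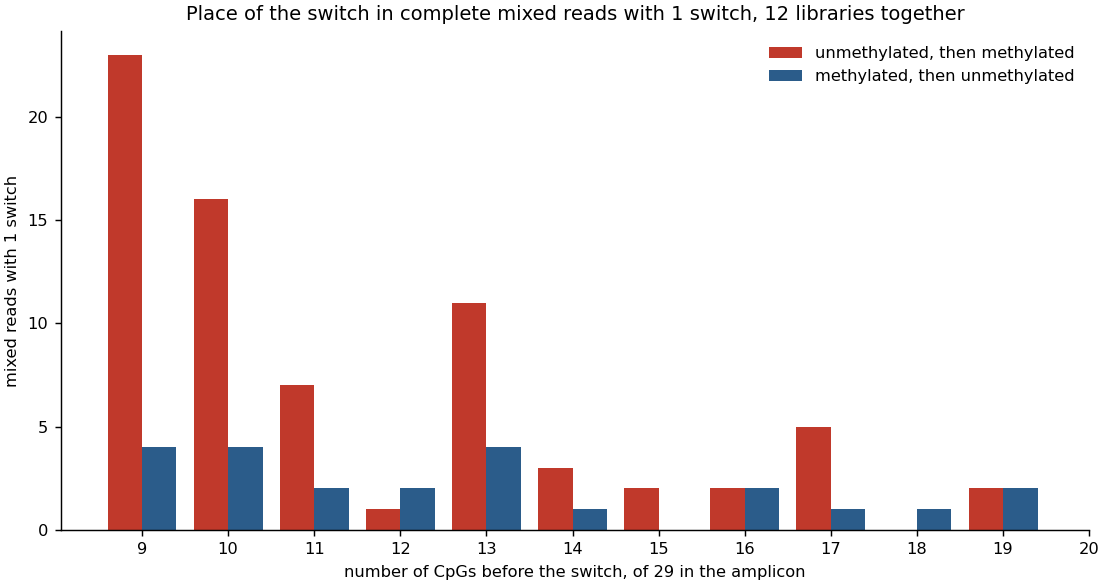
Bars count the complete mixed reads with 1 switch by the number of CpGs before it, for each direction, over 12 libraries together. Of the 72 reads that were unmethylated first, 39 switched after CpG number 9 or 10, the first boundaries that the definition of a mixed read admits.

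Reads with 2 switches numbered 44, of which 20 were methylated at both ends and 24 unmethylated at both ends. All 5 in the knockout trunk had methylated ends, and all 5 in heterozygous tail 3 had unmethylated ends.

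The neighbouring CpGs with the largest share of switching reads were not the same in each source, though the lead over the next pair was often small. In all 5 heterozygous tails and in the wild-type tail the pair of neighbours with the most switches was CpGs 180 and 193, at 39.2% to 51.1% of reads in the heterozygous animals and 41.4% in the wild type. In the knockout tail it was CpGs 214 and 216, only 2 bp apart, at 53.9% of 167 reads, against 32.6% in the wild-type tail. It was CpGs 200 and 205 in the knockout trunk (48.9%), 246 and 251 in the wild-type trunk (41.1%), 198 and 200 in the knockout mESC (45.5%), 157 and 167 in the wild-type mESC (36.7%), and 231 and 244 in the dead pup (51.7%). Near ties included CpGs 101 and 108 in the dead pup (51.4%), 193 and 198 in the wild-type tail (41.1%) and 149 and 157 in wild-type mESC (34.4%). In knockout mESC CpGs 180 and 193 came close (44.0%). So did 205 and 214 in heterozygous tail 5 (49.1%, against 50.0%) and 77 and 101 in heterozygous tail 2 (37.0%, against 39.2%).

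Mixed reads of most libraries were diverse. The 1838 complete mixed reads showed 1312 distinct patterns, and 26 patterns occurred in at least 2 libraries, 16 of them with a single switch. The dead pup had 213 distinct patterns in 252 complete mixed reads, none in more than 3 reads, and heterozygous tail 5 had 132 in 144. The knockout tail had 87 in 141 and the knockout trunk 107 in 145. In the heterozygous tails no pattern was carried by more than 5 reads. The most frequent complete pattern was a tie of 2 in knockout mESC (4 of 236 reads each), of 8 in the dead pup, and of 2, 13, 5 and 3 in heterozygous tails 1 to 4. Heterozygous tail 5 had a single one, zZZzZzzzzzZzzzZZZZzZzzzzzzzzz, in 3 of its 144 complete mixed reads.

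Knockout oocyte library 2 was unlike the other libraries in this. Its 174 complete mixed reads held 29 patterns, and the 2 printed above made up 73 and 54 of them. Allowing up to 2 differences, 136 of the 236 mixed reads (57.6%) belonged to the first and 85 (36.02%) to the second, 221 in all (93.6%), with 15 near neither. The 2 patterns had 17 and 20 methylated calls, differed at 9 CpGs (157, 167, 200, 205, 216, 221, 223, 264 and 273), were both methylated at 14 and both unmethylated at 6 (131, 147, 149, 177, 228 and 246). The second pattern lies just under the bound of 70%, so the definition limits how many reads near it were counted. Just outside, 46 reads of this library lay at 70% to 80%, and whether they belong to it was not tested.

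The profile of that library followed from these patterns. CpG 59 was methylated in 100% of calls, as was 1 other CpG, and CpG 177 in 0.439% (interval 0.0775 to 2.44, 228 calls), so that all 224 reads called at both CpGs 177 and 180 switched between them. The 3 stretches stood at 99.1%, 26.9% and 60.95%. Its mean switch ratio was 0.914, with a median of 13 switches, 2.54% of reads in blocks and 5.93% scattered. Among mixed reads called at every CpG the block share was 0%, so its block reads were all incomplete. Its 5 reads with a single switch all switched between CpGs 108 and 131, where both printed patterns change too. Whether they are shortened copies of these patterns was not tested. Here a ratio near 1 went with repeats of a few patterns, and repeated molecules and repeated PCR copies cannot be told apart. With identical patterns counted once the ratio was 0.902 and the scattered share 17.7%. Counted so, patterns that differ at a single CpG stay separate.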

How the data were processed

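DNA was bisulfite-converted with a Zymo kit, amplified in nested PCR and read on a nanopore sequencer, per the labels' protocols. Each deposited file gives 1 methylated or unmethylated call per read and CpG, written by the Bismark methylation extractor 0.22.3 per the file headers. Bismark 0.24.2 and mm10 are named in the submitters' processing notes. How reads were aligned and filtered is not given in the sources used. The calls do not separate methylcytosine from hydroxymethylcytosine, and conversion at cytosines outside CpGs could not be read from CpG calls.

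The 17 IG-CGI libraries held 418 to 1917 reads. A position called in 10% or more of any library's reads was taken as a CpG, which gave 29, and no library had more than 0.0416% of its calls elsewhere. Reads with at least 5 calls were classed by their share of methylated calls. Profiles were made for the 13 libraries with at least 30 mixed reads. The expected switches of a read with Z methylated and z unmethylated calls are 2 times Z times z over their sum. For each such library the text names the CpGs with the highest and lowest level (at least 10 calls), the neighbours with the most switches and the most frequent complete pattern, or how many patterns tied for it. Other CpGs and patterns were chosen after their values were seen.

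Shares have 95% Wilson intervals, and a count of 0 has the limit of 3 counts. Libraries were compared by exact two-sided permutation or sign-flip tests, 12 in all, with Benjamini-Hochberg adjustment. The scripts were tested on simulated data. The alternatives were other bounds of the class, at least 10 calls, complete reads, identical patterns counted once, calls at every position, another form of the ratio, and leaving out each source or replicate. Members, groups of CpGs and tests were chosen with earlier results of these data known. The division into block and other reads, the comparison of the dead pup with the heterozygous tails and the limit to complete reads for the place of a switch were added after seeing the data. No genome or amplicon sequence was used here, and gene positions are from RefSeq on the mm10 assembly. Software was Python 3.11.15 with numpy 2.4.6, scipy 1.17.1, pandas 2.3.3 and matplotlib 3.10.9.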

Additional observations from a re-analysis of the deposited data

How the results depend on the processing

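With identical patterns counted once, the heterozygous tails minus the wild-type tail came to -0.373 points for the mixed share and -0.526 for mixed reads that are not block reads, and the knockout minus the wild type over sources to -0.994 for block reads. Counted so, the mixed share left its Wilson interval in 14 of 17 libraries. With bounds of 40% and 60% the heterozygous minus wild-type switch ratio was -0.00446, and with bounds of 20% and 80% the difference in block reads was -0.556. Without mESC the block difference over sources was -0.0744. The cause of these turns was not tested. No p-value was under 0.05 under any setting, and the designs could not reach it. Requiring at least 10 calls, complete reads or calls at every position kept the mixed share within its interval in all 17 libraries.

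Leaving out each heterozygous animal in turn gave 0.170 to 0.812 points for the mixed share, 0.0125 to 0.0413 for the ratio, 0.124 to 0.377 for block reads and -0.189 to 0.688 for other mixed reads, each against the wild-type tail. The dead pup minus the remaining animals was then 14.1 to 14.7 points, 0.152 to 0.181, -1.36 to -1.10 and 15.2 to 16.0. Leaving out a knockout oocyte library gave 4.34 to 11.8 points for the share over sources, 0.187 to 0.378 for block reads and 4.16 to 11.5 for other mixed reads. No paired analysis was possible because no compared groups share 2 replicate numbers. The sign-flip tests pair genotypes by source, not by replicate. The fewest mixed reads behind a profile were 64, in wild-type mESC, so levels of single CpGs there are the least precise.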
